A study of Drosophila melanogaster with 6 samples.

Results

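The CYP3-clan genes of Drosophila melanogaster are the cytochrome P450 genes of the families Cyp6, Cyp9, Cyp28, Cyp308, Cyp309, Cyp310 and Cyp317. They were taken as the rows of the deposited count files whose FlyBase gene ID has a current symbol of one of these families. Of 40 such symbols 36 were among the 16641 gene IDs of the files. The IDs of Cyp6a15Psi, Cyp6t2Psi, Cyp6a21 and Cyp9f3 were not matched to a row and were not analysed here. Of the 36 genes, 31 had 10 or more counts in at least 3 libraries and were tested, among 10214 genes tested in all.

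Cytochromes P450 are haem enzymes that insert an oxygen atom from molecular oxygen into a substrate, with electrons passed to them at the endoplasmic reticulum by NADPH-cytochrome P450 reductase. CYP3-clan enzymes of insects are best known for the oxidation of plant toxins and insecticides. Many of their genes respond to foreign compounds through the transcription factor cap'n'collar (cnc) and its inhibitor Keap1, and many lie in tandem arrays of related copies.

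Head RNA came from male flies aged 3 days that were kept at 18 C. The mutant group had 3 libraries of the strain labelled y, sc, Adar5G1, and the comparison group had 3 libraries of w1118. Adar, an X-linked gene, encodes the enzyme that deaminates adenosines in RNA, and w1118 is a laboratory stock with a mutation in the eye pigment transporter gene white. Each genotype was 1 stock, so the Adar allele, the y and sc markers and any other sequence difference between the stocks cannot be told apart in any result below. The labels do not say whether libraries of a group came from separate collections, so p-values reflect how far libraries of a group differed, a spread that may be technical.

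Values are given as CPM, fragment counts scaled to a common library size with TMM factors for library composition, and differences as log2 fold changes of Adar5G1 over w1118 from edgeR's quasi-likelihood test. A gene was called when its p-value, adjusted by the Benjamini-Hochberg method over all tested genes, was below 0.05. The libraries held 6872569 to 21639081 counts over genes. Adar itself had 5, 1 and 19 counts in the mutant libraries and 2860, 6142 and 2602 counts in w1118. The photoreceptor opsin gene ninaE had a mean of 8450 CPM in Adar5G1 and 9121 CPM in w1118, and 7 of 10 midgut enzyme markers had 0 counts in every library.

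In the mutant 9 of the 31 tested genes rose and 8 fell, while 14 did not pass. Over all tested genes 13.8% were called, 8.63% as higher and 5.14% as lower. Changes of at least 2-fold were called for 6 rises and 6 falls, that is for 38.7% of the tested P450 genes, beside 5.89% of all genes tested (4.19% higher and 1.7% lower). The median log2 fold change was -0.11, beside 0.00 over all genes (-7.45e-05), and the median absolute change was 0.78, beside 0.17. Groups did not overlap for 20 of the 31 genes, 10 in each direction, beside 31.3% of all tested genes. Scaling by the upper quartile gave 8 rises and 11 falls, and scaling by total counts gave 6 rises and 9 falls. The genes were thus split between directions, and large changes were found both ways.

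**Figure D1:**
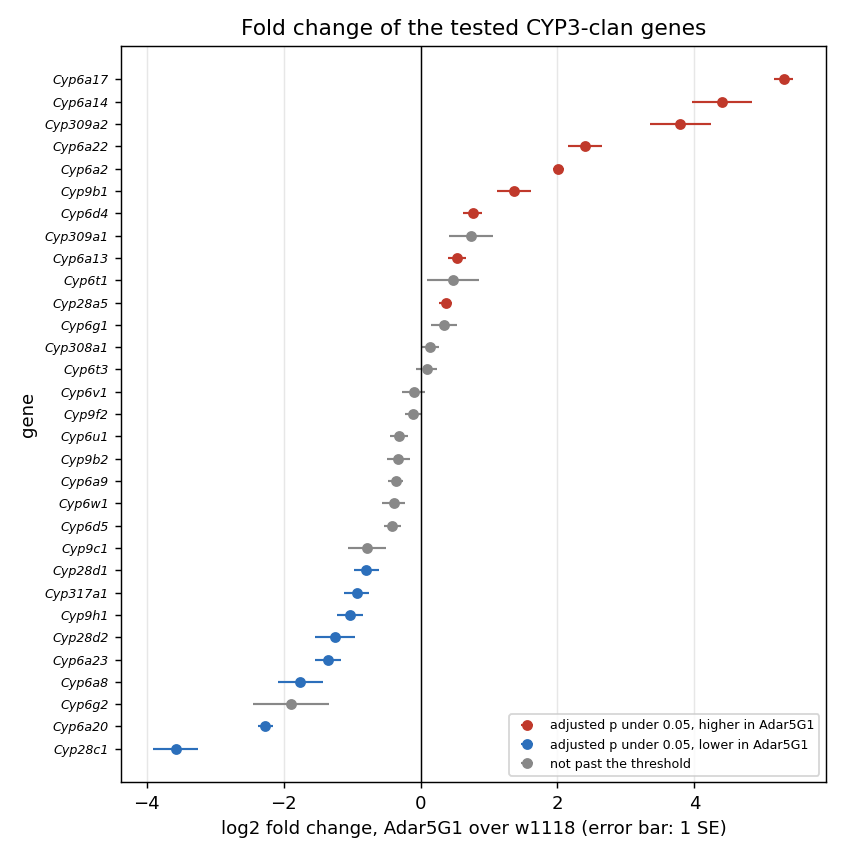
Log2 fold change of the 31 tested CYP3-clan genes, Adar5G1 over w1118, with 1 SE as the error bar, ordered by value. The 9 red genes rose and the 8 blue genes fell, from Cyp6a17 at 5.31 to Cyp28c1 at -3.58, and the 14 grey genes did not pass the threshold.

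The count filter bore on 2 of the rises. Cyp6a14 and Cyp309a2 reached 10 counts in the Adar5G1 libraries only, so they could be tested only because they were expressed there. Just outside the filter lay Cyp6d2 (FBgn0034756, 2R:18540078-18542035), a gene linked to camptothecin resistance, with 23, 8 and 31 counts in Adar5G1 and 1, 3 and 0 in w1118. Under edgeR's own filter it was tested and called higher, at a log2 fold change of 3.64 with an SE of 0.53 (edgeR adjusted p = 0.00299). Its few w1118 counts mean that it passed that filter, too, only through Adar5G1, where it was high. Cyp28c1 lay just inside, with 11, 8 and 10 counts in Adar5G1, and passed mainly through w1118. The other untested genes, Cyp6a16, Cyp6a18, Cyp6a19 and Cyp310a1, had at most 4 counts in any library.

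The largest rise among the tested P450 genes, that of Cyp6a17, was found in a tandem array on chromosome arm 2R, where Cyp6a22, Cyp6a17, Cyp6a23, Cyp6a19, Cyp6a9, Cyp6a20, Cyp6a8 and Cyp317a1 lie in this order within 29.7 kb (dm3, 2R:10758874-10788600). Of its 7 tested genes 2 rose, 4 fell and 1 did not pass. The rises were those of the first 2 genes of the array, and the 4 falls lay downstream of them.

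Cyp6a17 (FBgn0015714, 2R:10761458-10763063, plus strand, 2 exons), known for a role in temperature preference, had 47.2, 48.6 and 42.3 CPM in Adar5G1 replicates 1, 2 and 3 and 1.28, 0.998 and 1.30 CPM in w1118 replicates 1, 2 and 3. The w1118 values came from 11, 18 and 12 counts. The groups were far apart, with 46.0 ± 3.31 against 1.19 ± 0.167 CPM (SD, n = 3 each), a 39.6-fold rise (log2 fold change 5.31, SE 0.14, edgeR adjusted p = 1.24e-06). Its upstream neighbour Cyp6a22 (FBgn0013773, 2R:10758874-10760970, plus strand) had 8.42, 10.8 and 9.44 CPM in Adar5G1 and 1.28, 1.50 and 2.70 CPM in w1118. It rose 5.29-fold (log2 fold change 2.40, SE 0.25, edgeR adjusted p = 6.07e-04), again with no overlap.

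Cyp6a23 (FBgn0033978, 2R:10763334-10765159, plus strand) starts 271 bases past the end of Cyp6a17 on the same strand and moved the other way. It had 5.17, 8.28 and 6.04 CPM in Adar5G1 and 16.5, 13.6 and 18.6 CPM in w1118, a 2.56-fold fall (log2 fold change -1.35, SE 0.19, edgeR adjusted p = 0.0025). Cyp6a17 and Cyp6a23 are related copies, and their sequence identity, which could affect how reads were shared between them, was not measured here. Their summed level was 52.3, 56.9 and 48.4 CPM in Adar5G1 and 17.8, 14.6 and 19.9 CPM in w1118, a sum chosen after the values were seen. The sum was higher in each mutant library than in any w1118 library. As Cyp6a17 made up most of the mutant sum, this restates its own rise. How reads were shared between the copies was not tested.

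Cyp6a20 (FBgn0033980, 2R:10769623-10771551, plus strand), a gene of pheromone-sensing hair support cells with a known part in male aggression, had 17.6, 18.5 and 21.9 CPM in Adar5G1 and 94.6, 86.5 and 101 CPM in w1118. It fell 4.82-fold (19.3 ± 2.26 against 94.0 ± 7.24 CPM, log2 fold change -2.27, SE 0.11, edgeR adjusted p = 9.94e-06). Among 8 markers of antennal neurons and support cells, all 8 tested, 0 were called with edgeR, 2 were lower at an unadjusted p below 0.05, and DESeq2 called 1 as lower. Their summed level was 1086 to 1302 CPM in Adar5G1 and 1185 to 1413 CPM in w1118. The most abundant of these, Obp19d, had a log2 fold change of -0.20 (SE 0.13).

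Cyp6a8 (FBgn0013772, 2R:10774676-10776515, minus strand), a gene inducible by drugs and overexpressed in some DDT-resistant strains, had 30.3, 27.5 and 63.0 CPM in Adar5G1 and 157, 96.4 and 164 CPM in w1118. Adar5G1 replicate 3 stood above the other mutant libraries but below each w1118 library, and the fall was 3.38-fold (log2 fold change -1.76, SE 0.33, edgeR adjusted p = 0.00896). With robust dispersion its adjusted p was 0.0657. Cyp317a1 (FBgn0033982, 2R:10786697-10788600, plus strand), the last gene of the array, had 4.21, 3.70 and 4.60 CPM in Adar5G1 and 8.24, 6.71 and 9.82 CPM in w1118, a 1.91-fold fall (log2 fold change -0.94, SE 0.18, edgeR adjusted p = 0.0114).

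The member between these falls, Cyp6a9 (FBgn0013771, 2R:10766861-10768877, minus strand), had 28.6 ± 2.13 against 37.1 ± 4.57 CPM and was not called (log2 fold change -0.36, SE 0.11, edgeR adjusted p = 0.0701). Without w1118 replicate 2 it passed as lower (adjusted p = 0.0335), as it did with upper-quartile scaling (0.0351). FBgn0033981 (2R:10772769-10774452, minus strand), which lies between Cyp6a20 and Cyp6a8 and for which the tables used here give no symbol, was not called either (-0.27, SE 0.23). The newer BDGP6 annotation places Cyp6a21, under an ID that was not matched to a row, between the same genes, but no table used here pairs both IDs. If they are one gene, the array has 8 tested P450 genes, 2 of them not called, and Cyp6a20 and Cyp6a8 are not consecutive. The genes that flank the array, Pcf11 on the left (0.04, SE 0.09) and Kank on the right (-0.10, SE 0.08), did not pass. Calls in this stretch were thus found among the P450 genes and not at either border gene.

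**Figure D2:**
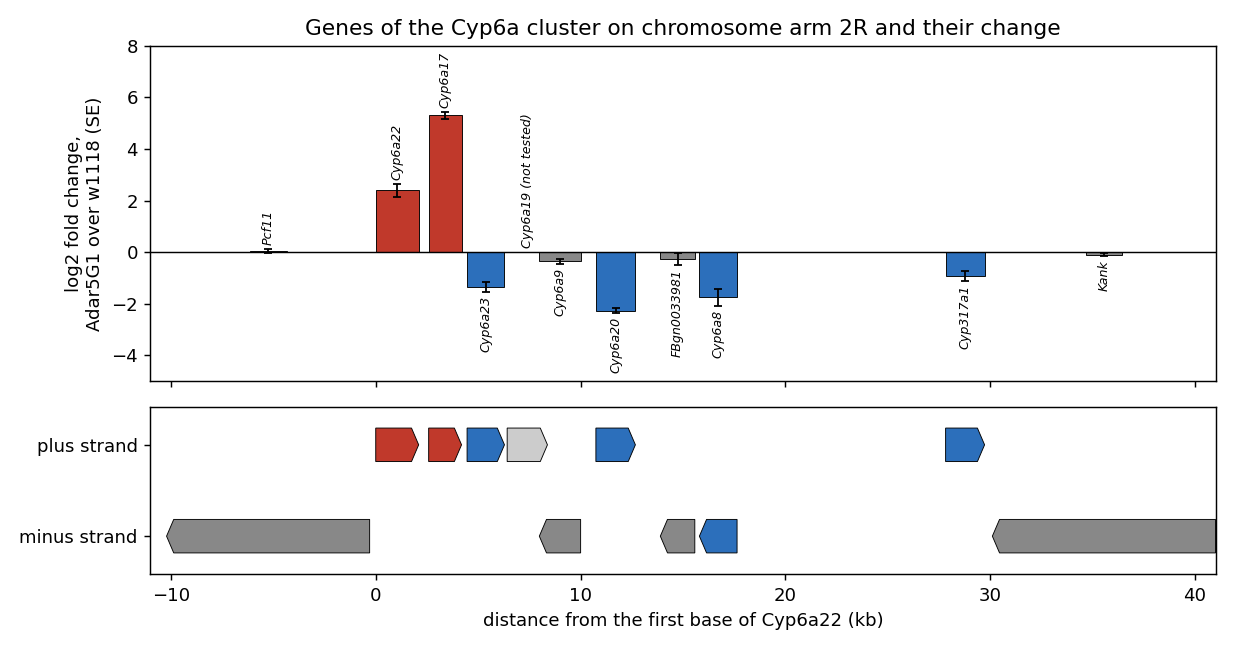
Upper panel, log2 fold change (bar) and SE (error bar) of the genes in and within 10 kb of the Cyp6a array on 2R, and lower panel, their extent and strand, by distance in kb from the first base of Cyp6a22. Red genes rose, blue genes fell, grey genes did not pass and the light grey gene was not tested; bars of Pcf11 and Kank are drawn narrower than the genes, and Kank runs past the right edge. The rises of Cyp6a22 (2.40) and Cyp6a17 (5.31) stand directly beside the fall of Cyp6a23 (-1.35).

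To compare neighbours with each other, the log2 ratio of the counts of both genes was taken within each library, with 0.5 counts added, which cancels library size. Consecutive genes at most 20 kb apart gave 13 pairs, of which 11 had both genes tested, 5 of them in the array. A 2-sided exact permutation test of 3 against 3 libraries cannot give a p below 0.1, so none of these comparisons can pass 0.05. Groups did not overlap for 7 of the 11 pairs, each with exact p = 0.1 (0.157 adjusted over 11 pairs). The share among neighbouring genes outside the P450 set was not measured. These ratios restate the changes of the single genes, and some pairs share a gene, so they are descriptions and not separate evidence.

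The ratio of Cyp6a17 to Cyp6a23 turned over between the stocks. Its log2 value was 3.18, 2.54 and 2.80 in Adar5G1 replicates 1, 2 and 3, against -3.63, -3.74 and -3.79 in w1118, a difference of 6.56. Cyp6a17 was thus the more abundant of the pair in each mutant library and the less abundant in each w1118 library. The ratio of Cyp6a22 to Cyp6a17 was -2.27 ± 0.18 against 0.53 ± 0.52 (SD, n = 3 each), so these neighbours, although both rose, did so unequally. The ratio of Cyp6a9 to Cyp6a20 was 0.57 ± 0.18 against -1.35 ± 0.08, and that of Cyp6a8 to Cyp317a1 3.16 ± 0.53 against 4.05 ± 0.20, with no overlap of groups in either. The ratio of Cyp6a20 to Cyp6a8 overlapped, with -0.96 ± 0.50 against -0.53 ± 0.32 and a difference of -0.43 (exact permutation p = 0.4).

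Outside the array 6 pairs were compared, and groups did not overlap for 3 of them. The ratio of Cyp6a14 to Cyp6a13 was -2.71 ± 0.40 against -6.39 ± 0.29, that of Cyp9b1 to Cyp9b2 -1.89 ± 0.16 against -3.54 ± 0.12, and that of Cyp309a1 to Cyp309a2 1.03 ± 0.17 against 3.95 ± 0.43. The pairs of Cyp6a14 and Cyp309a2 rest on genes that passed the count filter through Adar5G1 alone, where they were high. For Cyp28d2 and Cyp28d1 the groups overlapped (difference -0.54, exact permutation p = 0.4). For Cyp6g1 with Cyp6g2, and Cyp6g2 with Cyp6t3, they overlapped too (exact permutation p = 0.2 each).

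**Figure D3:**
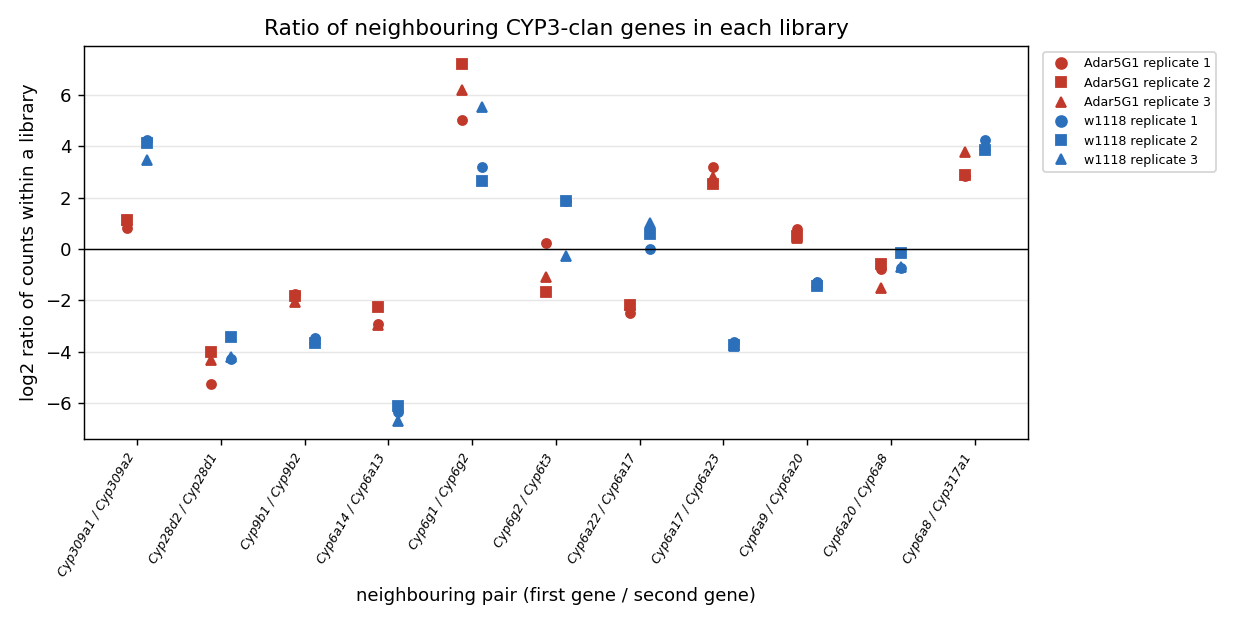
Log2 ratio of the counts of 2 neighbouring CYP3-clan genes within each library, for the 11 pairs compared; red points are Adar5G1 and blue points w1118 libraries, and the symbol gives the replicate. For Cyp6a17 over Cyp6a23 the red points lie between 2.54 and 3.18 and the blue points between -3.79 and -3.63.

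Elsewhere, 7 genes rose. Cyp6a2 (FBgn0000473, 2R:2667254-2668996), which metabolises DDT and other insecticides, had 112, 121 and 111 CPM in Adar5G1 and 28.9, 26.3 and 30.2 CPM in w1118. It rose 4.04-fold (log2 fold change 2.01, SE 0.08, edgeR adjusted p = 8.49e-06), with little spread in either group. Cyp6a14 (FBgn0033302, 2R:4451801-4453481) had 3.17, 4.29 and 2.40 CPM in Adar5G1 and 0.116, 0.166 and 0.108 CPM in w1118, the latter from 1, 3 and 1 counts. Its fitted change was 21.2-fold (log2 fold change 4.41, SE 0.44, edgeR adjusted p = 4.88e-04), and so few counts leave its size uncertain.

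Cyp309a2 (FBgn0041337, 2L:2564886-2573037) had 3.10, 5.47 and 2.97 CPM in Adar5G1 and 0.232, 0.166 and 0.432 CPM in w1118 (2, 3 and 4 counts), a fitted 13.9-fold rise (log2 fold change 3.80, SE 0.45, edgeR adjusted p = 0.00119). Its neighbour Cyp309a1 had 8.01 ± 3.47 against 4.71 ± 1.15 CPM and was not called (edgeR adjusted p = 0.185). Cyp9b1 (FBgn0015038, 2R:3015343-3017313) had 17.9, 18.3 and 11.7 CPM in Adar5G1 and 6.27, 4.55 and 8.10 CPM in w1118, a 2.57-fold rise (log2 fold change 1.36, SE 0.25, edgeR adjusted p = 0.00837). Its exons overlap those of esn on the opposite strand, and the authors counted by strand. Its neighbour Cyp9b2 had 58.6 ± 8.45 against 73.1 ± 16.9 CPM (edgeR adjusted p = 0.277).

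Cyp6d4 (FBgn0039006, 3R:18524041-18526029) had 10.1, 12.4 and 10.4 CPM in Adar5G1 and 6.04, 6.04 and 7.12 CPM in w1118, a 1.70-fold rise (log2 fold change 0.76, SE 0.14, edgeR adjusted p = 0.00804). With total counts only its adjusted p was 0.088. The smallest rises were those of Cyp6a13 (0.53, SE 0.14, edgeR adjusted p = 0.0344) and Cyp28a5 (0.37, SE 0.10, edgeR adjusted p = 0.0383). Neither call held when replicate 1 or 2 of Adar5G1, or replicate 1 or 2 of w1118, was left out, with adjusted p in this order of 0.119, 0.070, 0.113 and 0.116 for Cyp6a13 and 0.141, 0.0724, 0.141 and 0.127 for Cyp28a5. Both calls were lost with total counts only as well (0.357 and 0.81), and with replicate number as a block in the fit (0.113 and 0.114). That of Cyp28a5 was also lost with upper-quartile scaling (0.0572).

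Outside the array 4 genes fell, 3 of them from the Cyp28 family. Cyp28c1 (FBgn0030339, X:11733641-11735536) had 0.812, 1.18 and 0.479 CPM in Adar5G1 and 8.36, 6.87 and 11.3 CPM in w1118. It fell 11.9-fold (log2 fold change -3.58, SE 0.33, edgeR adjusted p = 3.37e-04), the largest fall among the tested P450 genes in size. It lies on X, as Adar does, and the other tested X-linked genes of the set, Cyp308a1, Cyp6v1 and Cyp6t1, were not called.

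Cyp28d1 (FBgn0031689, 2L:5210460-5212445), linked to nicotine resistance, had 48.9, 46.7 and 61.5 CPM in Adar5G1 and 106, 67.1 and 102 CPM in w1118. It fell 1.73-fold (log2 fold change -0.79, SE 0.18, edgeR adjusted p = 0.021). Its neighbour Cyp28d2 (FBgn0031688, 2L:5207267-5209345) had 1.25, 2.81 and 3.07 CPM in Adar5G1 and 5.34, 6.15 and 5.40 CPM in w1118, a 2.38-fold fall (log2 fold change -1.25, SE 0.29, edgeR adjusted p = 0.0242). The groups did not overlap for either gene, but both calls depended on single libraries. That of Cyp28d1 was lost without Adar5G1 replicate 1 or 2 or w1118 replicate 1 or 3 (adjusted p of 0.0807, 0.0688, 0.088 and 0.0613), and that of Cyp28d2 without w1118 replicate 1 or 2 (0.0711 and 0.0873). The call of Cyp28d2 was also lost with the replicate block (adjusted p = 0.0561). Cyp9h1 (FBgn0033775, 2R:8728318-8730063) had 8.71, 6.65 and 5.65 CPM in Adar5G1 and 12.7, 13.6 and 16.6 CPM in w1118, a 2.05-fold fall (log2 fold change -1.03, SE 0.18, edgeR adjusted p = 0.00767).

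Levels of different genes were compared as CPM per kb of exon. In w1118 Cyp6d5 (152 CPM per kb), Cyp6w1 (148) and Cyp6g1 (94.1) led the order, and in Adar5G1 Cyp6g1 (119), Cyp6d5 (115) and Cyp6w1 (113). The ranges of these genes overlapped between neighbours of the order in both groups, so their order within a group is not fixed by these libraries. Of 30 neighbouring places in the order the ranges overlapped at 25 in w1118 and 24 in Adar5G1. Cyp6a17 moved from place 29 of 31 in w1118 to place 9 in Adar5G1, and Cyp6a2 from 11 to 4, while Cyp6a8 moved from 4 to 10, Cyp6a20 from 7 to 13 and Cyp28c1 from 17 to 31.

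**Figure D4:**
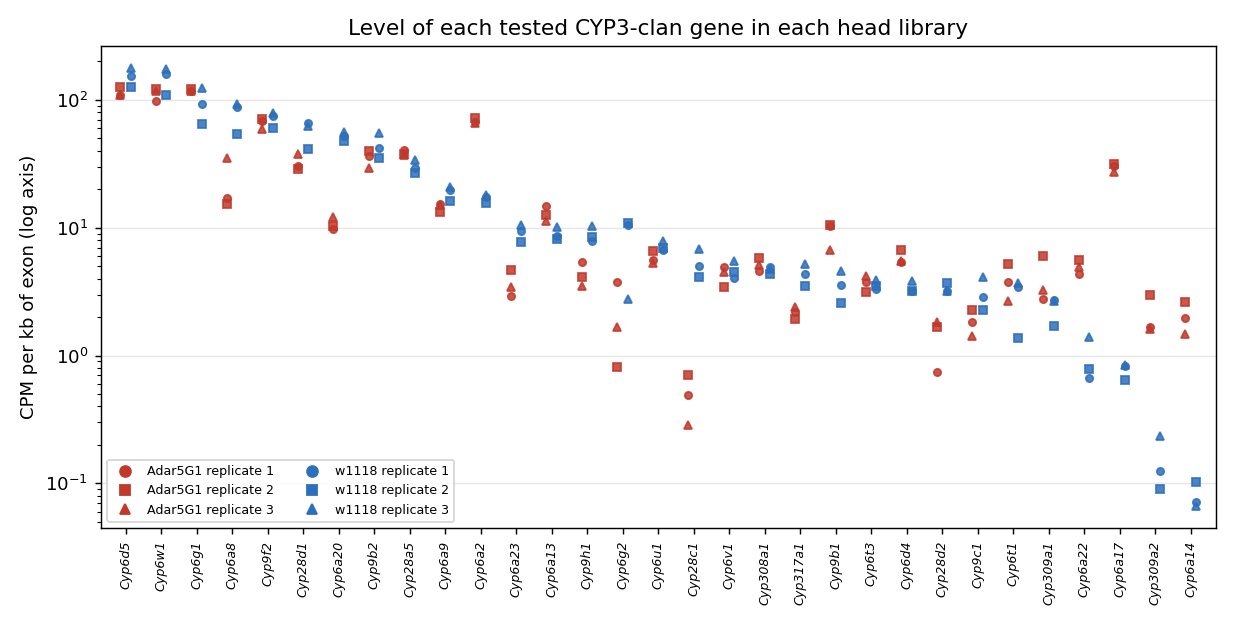
Level of the 31 tested genes in each library, as CPM per kb of exon on a log axis, ordered by the mean in w1118; red points are Adar5G1 and blue points w1118 libraries. Cyp6a2, Cyp6a17, Cyp6a22, Cyp309a2 and Cyp6a14 stand above their w1118 points, and Cyp6a8, Cyp6a20 and Cyp28c1 below them, with no overlap.

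The 3 leading genes were not called. Cyp6g1 (FBgn0025454, 2R:8073172-8075936), the best known DDT resistance gene of the fly, had 247 ± 4.96 CPM in Adar5G1 and 195 ± 60.8 CPM in w1118 (log2 fold change 0.34, SE 0.19, edgeR adjusted p = 0.314). Cyp6d5 (FBgn0038194, 3R:9854950-9857205) had 188 ± 15.8 against 250 ± 43.5 CPM (-0.41, SE 0.13, edgeR adjusted p = 0.071). Cyp6w1 (FBgn0033065, 2R:2061189-2062936) had 183 ± 20.01 against 241 ± 55.5 CPM (-0.40, SE 0.17, edgeR adjusted p = 0.171). These outcomes changed when single w1118 libraries were left out. Cyp6g1 passed as higher without w1118 replicate 3 (0.59, adjusted p = 0.0338), and Cyp6d5 and Cyp6w1 passed as lower without w1118 replicate 2 (-0.54 and -0.57, adjusted p = 0.0196 and 0.0206). Cyp6d5 also passed with DESeq2 (adjusted p = 0.0275), upper-quartile scaling, no filter and protein-coding genes only.

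Cyp6g2 (FBgn0033696, 2R:8075843-8077882, minus strand), whose last bases overlap Cyp6g1 on the opposite strand, varied most within groups. It had 1.63 to 7.46 CPM in Adar5G1, and 20.8, 21.5 and 5.50 CPM in w1118 replicates 1, 2 and 3, and was not called (-1.89, SE 0.56, edgeR adjusted p = 0.0597). Without w1118 replicate 3 it passed as lower (-2.28, adjusted p = 0.00928), as it did without Adar5G1 replicate 1 (-2.55, adjusted p = 0.0426), and with total counts only, upper-quartile scaling, no filter and protein-coding genes only. The remaining uncalled genes, Cyp308a1, Cyp6v1, Cyp6t1, Cyp6u1, Cyp9c1, Cyp9f2 and Cyp6t3, an ecdysone synthesis gene of the larval prothoracic gland, had log2 fold changes from -0.78 to 0.47.

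The summed level of the 36 genes was 725, 778 and 735 CPM per kb in Adar5G1 and 881, 676 and 987 in w1118, so the groups overlapped in the total while its make-up differed. As descriptions of genes grouped by their own calls, the 9 genes that rose summed to 299, 308 and 275 CPM in Adar5G1 and 110, 101 and 126 CPM in w1118. The 8 that fell summed to 117, 115 and 166 CPM against 409, 297 and 429 CPM. Cyp6a8 and Cyp6a20 gave 9.12% and 6.25% of the summed CPM per kb in w1118, and 3.05% and 1.44% in Adar5G1. Cyp6a2 and Cyp6a17 gave 2.04% and 0.0913% in w1118, and 9.19% and 3.99% in Adar5G1.

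**Figure D5:**
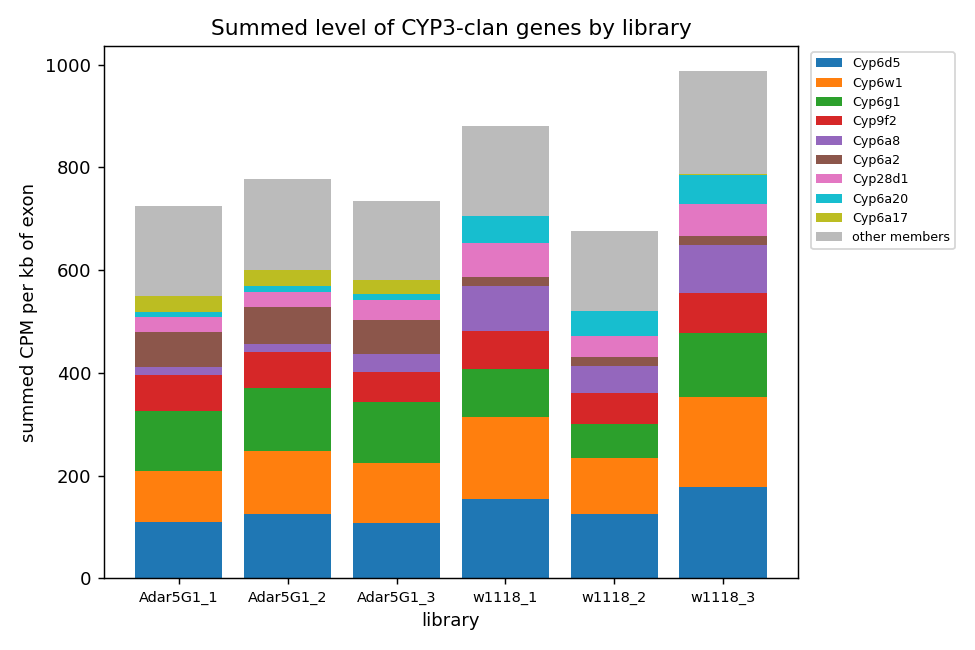
Summed CPM per kb of exon of the 36 CYP3-clan genes in each library, split into 9 genes and the rest. The totals run from 725 to 778 in Adar5G1 and from 676 to 987 in w1118, and the shares of Cyp6a2 and Cyp6a17 are larger, and those of Cyp6a8 and Cyp6a20 smaller, in the Adar5G1 bars.

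Libraries of a group also differed in their P450 levels. Replicate 3 was the highest w1118 library for 25 of the 31 genes (80.6%), beside 39.8% of all tested genes, and in Adar5G1 replicate 2 was the highest for 19 (61.3%), beside 37.2%. In w1118 replicate 2 lay lowest by the median deviation from the group mean (-0.24, against 0.20 in replicate 3, in log2 CPM). A list of 8 markers of fat body, a tissue that expresses many P450 genes, followed the same order. It summed to 2905, 2565 and 4026 CPM in w1118 replicates 1, 2 and 3, and most of that was apolpp (2606, 2313 and 3645 CPM). Of the other cell type lists, those of glia, hemocytes, oenocytes and antennal neurons and support cells had this order too. Those of neurons, photoreceptors, muscle, midgut and Malpighian tubule did not. In Adar5G1 the fat body list summed to 5928, 5839 and 4757 CPM, so it was highest in replicate 1 and not in replicate 2. Of its 8 markers 5 rose and 0 fell, with none at 0 counts in all libraries. Among the 5 were the lipid droplet protein genes Lsd-1 (3.08, SE 0.33) and Lsd-2 (1.18, SE 0.13) and the insulin-like peptide gene Ilp6 (0.96, SE 0.12). Another, Fbp1, passed the count filter through Adar5G1 only, with 18, 22 and 23 counts against 2 in each w1118 library. Without w1118 replicate 2 only 3 of the 8 markers rose. The part of these markers in the P450 results was not tested. In whole heads a change in the number of cells of a type and a change in RNA per cell cannot be told apart.

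Markers of other tissues with high P450 expression were measured too. Of 4 Malpighian tubule markers 2 were tested and 0 called with edgeR, limma-voom or DESeq2, or at an unadjusted p below 0.05 (summed level 10.1 to 10.5 CPM in Adar5G1 and 8.10 to 10.1 CPM in w1118), and the urate oxidase gene Uro was at 0 in every library. Of 10 midgut markers 3 were tested and 2 rose, Amy-d (11.4-fold) and its close copy Amy-p. The list summed to 18.5 to 30.8 CPM against 3.83 to 7.77 CPM. Amy-p passed the count filter through Adar5G1 only, with 63, 38 and 153 counts against 0, 0 and 2 in w1118. With 10 counts required in all 6 libraries, 1 midgut marker rose. Of 5 oenocyte markers 4 were matched and 2 were tested, and these rose, FASN2 (log2 fold change 2.32, SE 0.39) and svp (0.47). The latter was not called with total counts only or with the replicate block. The list summed to 45.1 to 56.8 against 31.3 to 35.1 CPM, and Cyp4g1, the defining oenocyte P450, had 0.809 ± 0.406 against 0.876 ± 0.104 CPM. The part of these markers was not tested either. Of 5 photoreceptor markers 2 fell, ninaC and inaD, of 4 muscle markers 1 fell, Act88F, and of 5 neuron markers 1 rose, Syt1. The photoreceptor list summed to 12456 to 14558 CPM in Adar5G1 and 15879 to 17110 CPM in w1118, with no overlap. The sums of the muscle and neuron lists overlapped between the groups. The call of ninaC was lost without Adar5G1 replicate 1 or w1118 replicate 1 or 2 (adjusted p of 0.0756, 0.0626 and 0.0715), and that of inaD without Adar5G1 replicate 1 or w1118 replicate 1 or 3 (0.0596, 0.0903 and 0.0812). Both calls were also lost with total counts only (0.773 and 0.776) and with the replicate block (0.0976 and 0.105). The list counts of neurons and muscle fell to 0 without any one of Adar5G1 replicate 1 and w1118 replicates 1 and 2, and also without w1118 replicate 3 for neurons and Adar5G1 replicate 3 for muscle. Of 5 glial and 5 tested hemocyte markers 0 were called with edgeR, with 1 each at an unadjusted p below 0.05, and DESeq2 called 0 and 1.

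Of 3 genes listed as redox partners, all tested, 1 rose with edgeR and 2 with DESeq2. The summed level of the list was 465 to 704 CPM in Adar5G1 and 247 to 392.5 CPM in w1118, with no overlap. Cyt-b5-r, at a mean of 279 against 88.5 CPM, had the largest part in that difference, so the sum does not describe each listed gene. Whether the Cyt-b5-r protein passes electrons to P450 enzymes was not tested. The gene that rose with edgeR was Cyt-b5-r, which encodes a cytochrome b5 domain protein, with 255, 365 and 217 CPM in Adar5G1 and 82.3, 44.0 and 139 CPM in w1118 (log2 fold change 1.66, SE 0.37, edgeR adjusted p = 0.0201). Its call was lost without Adar5G1 replicate 2 or w1118 replicate 1 (adjusted p of 0.0591 and 0.0898), with robust dispersion and with the replicate block (0.0724). Cyt-b5, the cytochrome b5 gene, and Cpr, the P450 reductase gene, are named here after their values were seen. Cyt-b5 had 112, 138 and 100.1 CPM in Adar5G1 and 86.4, 64.2 and 91.0 CPM in w1118, with no overlap, and was not called (0.54, SE 0.16, edgeR adjusted p = 0.0566). Cpr had 186 ± 32.7 against 146 ± 14.6 CPM, with overlap of the groups, and was not called (0.35, SE 0.13, edgeR adjusted p = 0.138). Without Adar5G1 replicate 3 Cpr passed as higher (0.49, adjusted p = 0.0093), and all 3 genes of the list were called. Robust dispersion and the replicate block each gave 0 called genes of the 3, as did leaving out replicate 2 of Adar5G1 or replicate 1 of w1118.

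Of 6 regulators of the response to foreign compounds 1 rose, Keap1, the inhibitor of cnc (0.35, SE 0.10, edgeR adjusted p = 0.0465). That call was lost without any one of Adar5G1 replicates 1 and 2 and the w1118 replicates (adjusted p of 0.167, 0.0838, 0.134, 0.093 and 0.124). It was also lost with DESeq2 and in total in 11 of 18 alternative analyses. Of 11 target enzymes of cnc 8 were tested and 1 rose, the glutathione S-transferase gene GstD1 (0.51, SE 0.12, edgeR adjusted p = 0.0222), with 0 lower and a median log2 fold change of -0.05. Without Adar5G1 replicate 2 or w1118 replicate 1 or 2 the call of GstD1 was lost (adjusted p of 0.0625, 0.0886 and 0.0845). It was also lost with total counts only (0.517) and with the replicate block (0.0584).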

How the data were processed

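Each file deposited by the authors holds the raw counts of fragments of 1 library over genes. Counting, per the file headers, used featureCounts 1.4.5-p1 by exon and gene, reverse-stranded, on FlyBase annotation 5.53, with a fragment overlapping several genes counted for each and the multi-mapping option not set. Counts of near-identical copies can therefore be low or split. TopHat and the dm3 (BDGP5) build are named in the submitters' processing notes, and coordinates are in dm3. Symbols were matched by ID for 15924 of 16641 genes.

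The row without a gene ID (0.369% to 0.633% of counts) was left out. Genes with 10 or more counts in at least 3 libraries were tested with edgeR 4.0.16 (R 4.3.3): TMM, the quasi-likelihood F test, group as the only term, Benjamini-Hochberg adjustment and a threshold of 0.05. CPM are counts divided by TMM-scaled library size over tested genes. Each SE was taken as the absolute log2 fold change over the root of its F statistic. The test was tried on simulated counts.

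No 2 libraries of a group agreed within sampling noise (chi-square over genes 25.2 to 251 times its degrees of freedom). Between libraries of different groups the multiple was 41.8 to 264, so both ranges overlapped. The members, lists and tests were chosen with earlier results of these data known. Per-library values were given for 15 called members with the smallest p in each direction. Other members were given by ranges or means, except Cyp6g2 in w1118 and the counts of Cyp6d2. Listed genes were given mainly as up to 3 called members per list, with apolpp and Fbp1 named besides for their levels. The uncalled or untested Obp19d, ninaE, Uro, Cyp4g1, Cyt-b5 and Cpr were named as well. Ufsp1 shares exons with Cyp6u1 on the same strand. Alternatives were DESeq2 1.42.0, limma-voom (limma 3.58.1), other scalings and filters, robust dispersion, a replicate block, protein-coding genes only and left-out libraries. No sequence was used.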

Additional observations from a re-analysis of the deposited data

How the results depend on the processing

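Of the 17 called P450 genes 11 kept their call and direction in each of the 18 alternatives that tested them, 6 lost the call in at least 1, and 0 changed direction. Of the 14 uncalled genes 5 passed in at least 1. With total counts only, 556 genes rose and 215 fell over the whole table, beside 881 and 525, and with upper-quartile scaling 791 and 766. Leaving out 1 library at a time gave 527 to 1000 rises and 314 to 499 falls over the table, 7 to 10 rises and 6 to 10 falls among P450 genes, and a P450 median log2 fold change of -0.22 to -0.023. Without both libraries numbered 3 that median was 0.0022. The replicate number did not pair the libraries: correlations of same-numbered deviations were 0.092, -0.16 and -0.24. Adar5G1 replicate 2 with w1118 replicate 3 gave 0.21, and Adar5G1 replicate 3 with w1118 replicate 2 gave 0.29. The other differently numbered pairs gave -0.14 to 0.030. A batch shared under other numbers was not tested. With the replicate block 464 genes rose and 274 fell, 7 and 7 of them P450 genes. Uncalled genes near 0 changed sign: over left-out libraries Cyp6t3 ranged from -0.024 to 0.17, Cyp6v1 from -0.21 to 0.022 and Pcf11 from -0.033 to 0.086. Without both libraries numbered 3 Cyp9f2, Cyp6v1 and Pcf11 were at 0.057, 0.0022 and -0.091, and with upper-quartile scaling Pcf11 was at -0.017. The cause was not tested. The direction of each neighbour difference was the same with 0.1 or 2 counts added and without any 1 library. Depth limits genes of a few counts, such as Cyp6a14 and Cyp309a2 in w1118.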
